A study of Mus musculus with 8 samples.

Results

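10 genes of the klotho, phosphate and vitamin D axis were examined in mouse kidney, taken by gene symbol from the 54251 genes of the deposited expression table: Kl, Fgfr1, Vdr, Cyp24a1, Cyp27b1, Slc34a1, Slc34a3, Slc20a1, Slc20a2 and Pth1r. Each symbol had 1 row, and all 10 passed the minimum mean of 0.5 FPKM (fragments per kilobase of a gene, relative to library size) that left 15607 genes for testing. Kidneys of adult male C57BL/6 mice were sequenced as 8 libraries of polyadenylated RNA, 2 in each of 4 groups. WT is wild type and KO is a kidney-specific knockout of Ehmt2, which encodes the histone methyltransferase G9a, while WT_IR and KO_IR are the same genotypes with ischemia-reperfusion injury (IR), in which a clamp on the left renal pedicle stopped its blood flow for 45 min before kidneys were collected on day 3. Each library is a pool of RNA from 3 mice, so the replicate error is a spread between pools. The promoter that drives the deletion, and whether the wild type mice carry a floxed Ehmt2 allele, could not be read from the sources used here. The labels also do not say whether WT and KO kidneys came from unoperated mice or were the uninjured kidneys of operated mice.

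Klotho, the product of Kl, is a membrane protein of the distal and proximal tubule that lets Fgfr1 and related receptors bind the bone hormone FGF23. FGF23 and parathyroid hormone (PTH) lower the amount of the sodium-phosphate cotransporters Slc34a1 and Slc34a3 in the brush border of the proximal tubule, which recovers phosphate from the filtrate. Calcitriol, the active form of vitamin D, is made by Cyp27b1, degraded by Cyp24a1 and sensed by Vdr, a nuclear receptor that activates Cyp24a1 and represses Cyp27b1.

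After IR in wild type kidney Kl, Vdr, Slc34a1, Slc34a3 and Pth1r fell and Slc20a1 rose. Slc34a3 had the greatest fall among the 10 genes, to 13.7% of its WT mean, and Slc20a1 reached 439% of its WT mean. The same 6 genes differed between KO_IR and WT_IR, in each case with the KO_IR level on the side of the kidneys without IR. None of the 10 passed the test between KO_IR and KO or between KO and WT. Fgfr1 and Slc20a2 stayed within a narrow range in all 8 libraries, and the hydroxylases Cyp24a1 and Cyp27b1 differed up to 8.20 times between replicates of a group.

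The tests used limma on log2(FPKM + 1) with all 8 libraries, and p-values were adjusted by the Benjamini-Hochberg procedure over all 15607 genes of a comparison, with a threshold of 0.05. In WT_IR against WT, 6 of the 10 genes passed, 1 higher and 5 lower, where 42.3% of all genes tested passed, 19.1% higher and 23.2% lower. The median log2 change of the 10 genes was -0.42, and that of all genes tested was -0.02. In KO_IR against WT_IR, 6 of 10 passed, 5 higher and 1 lower, where 30% of all genes passed (16.6% higher and 13.5% lower), and the median log2 difference was 0.56 for the 10 genes and -0.01 for all genes. In KO_IR against KO, 0 of 10 passed in limma, where 1.03% of all genes passed, 0.948% higher and 0.0769% lower. By an unadjusted p under 0.05, 1 of the 10 (Vdr) would pass, and voom on recovered fragments also called 0. In KO against WT, 0 of 10 passed, where 0.218% of all genes passed (0.16% higher and 0.0577% lower), with 0 at an unadjusted p under 0.05 and 0 by voom. The interaction, which asks whether the IR response differed between genotypes, passed for 5 of 10 genes, 4 positive and 1 negative, where 16.3% of all genes passed, 9.62% positive and 6.68% negative. Comparisons that share a group share its libraries, so their values stand side by side and are not independent of each other.

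Recovered fragments per library numbered 14965670 to 17596690. Ehmt2, the targeted gene, was at 33.4 and 30.3 FPKM in WT, 28.1 and 26.4 in KO, and after IR 34.5 and 35.8 in WT_IR but 27.3 and 26.3 in KO_IR. Both KO libraries lay below both WT libraries, at 85.4% of the WT mean, but KO minus WT did not pass (-0.22 ± 0.083, adjusted p = 0.37), while KO_IR minus WT_IR did (-0.38 ± 0.083, adjusted p = 0.014). Which part of Ehmt2 is deleted is not given in the sources used here, so its gene-level FPKM is a limited check of the KO label. The library size behind the deposited FPKM, divided by the summed fragments, is 1.18 and 1.19 in WT_IR and 0.921 to 1.03 in the remaining libraries. On a TPM scale, where every library sums to the same total, the median change of all genes in WT_IR against WT moves from -0.02 to 0.43 on the log2 scale, and in KO_IR against WT_IR from -0.01 to -0.33. The calls over all genes then change from 2980 higher and 3616 lower to 7486 and 1554 in the first of these comparisons, from 2583 and 2106 to 1432 and 5917 in the second, and from 1502 and 1042 to 745 and 3783 in the interaction. Of the 10 genes, 3 were higher and 4 lower in WT_IR against WT on that scale, where 57.9% of all genes passed, 48% higher and 9.96% lower. In KO_IR against WT_IR 3 were higher and 2 lower, where 47.1% of all genes passed (9.18% higher and 37.9% lower), and the interaction was positive for 3 and negative for 2, where 29% passed (4.77% positive and 24.2% negative). The calls for Kl, Slc34a1, Slc34a3 and Slc20a1 in these comparisons and in the interaction held on the TPM scale, while smaller changes depended on the scale, as given with each gene.

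**Figure D1:**
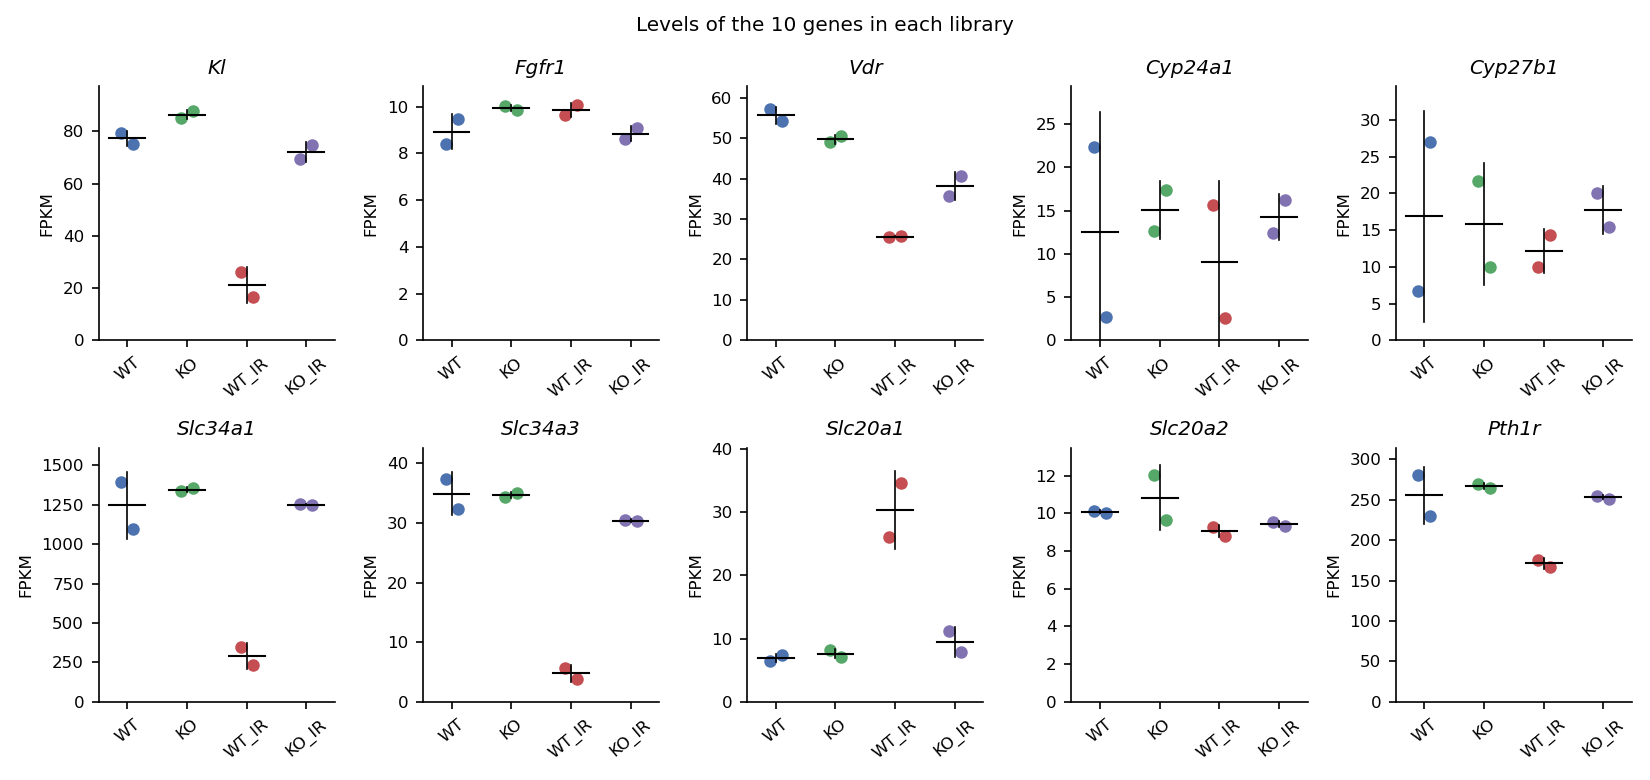
FPKM of each of the 10 genes in the 4 groups on linear axes that start at 0; points are the 2 libraries of a group, horizontal lines their mean and vertical lines the SD, cut at 0 where the SD passes it. Kl, Slc34a1, Slc34a3, Vdr and Pth1r are lowest in WT_IR and Slc20a1 is highest there, whereas Cyp24a1 spans 2.73 to 22.3 FPKM within WT alone.

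The promoters of the genes that fell most, Kl, Slc34a1 and Slc34a3, and of Slc20a1, which rose, are shown because these genes changed most among the 10. Each window, from the RefSeq table of GRCm38.p6, covers 250 bases before to 50 bases after an annotated start. Capitals mark exact matches to 3 motifs on either strand, and no match overlapped another. The first motif, written GGGCGG, is the GC box, which Sp family transcription factors bind. The second, written GTTAAT, is the core of a site for HNF1, a transcription factor of the proximal tubule. The last, written TATAAA, has the letters of the TATA box, an element that acts upstream of a start. The Kl window is chr5:150952357-150952656 on the plus strand, the Slc34a1 window is chr13:55399398-55399697 on the plus strand, the Slc34a3 window is chr2:25234185-25234484 on the minus strand and the Slc20a1 window is chr2:129198523-129198822 on the plus strand, the first of 2 that the table holds for that gene.
Kl: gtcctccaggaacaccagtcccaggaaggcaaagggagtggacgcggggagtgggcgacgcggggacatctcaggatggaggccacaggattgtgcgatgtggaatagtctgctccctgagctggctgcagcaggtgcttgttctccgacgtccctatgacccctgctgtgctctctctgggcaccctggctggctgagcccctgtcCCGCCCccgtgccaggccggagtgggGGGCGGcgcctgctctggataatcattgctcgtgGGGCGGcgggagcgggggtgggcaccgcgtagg
Slc34a1: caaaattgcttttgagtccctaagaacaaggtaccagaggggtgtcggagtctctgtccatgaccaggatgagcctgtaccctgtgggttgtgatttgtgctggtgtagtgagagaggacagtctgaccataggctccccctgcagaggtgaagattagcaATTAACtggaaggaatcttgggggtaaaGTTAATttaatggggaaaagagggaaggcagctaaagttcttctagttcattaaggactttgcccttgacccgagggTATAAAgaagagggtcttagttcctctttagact
Slc34a3: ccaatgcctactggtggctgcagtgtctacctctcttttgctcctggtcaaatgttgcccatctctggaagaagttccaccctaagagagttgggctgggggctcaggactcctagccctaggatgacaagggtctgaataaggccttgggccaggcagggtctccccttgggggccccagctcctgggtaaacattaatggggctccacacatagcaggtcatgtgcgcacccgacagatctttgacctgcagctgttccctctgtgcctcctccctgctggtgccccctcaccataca
Slc20a1: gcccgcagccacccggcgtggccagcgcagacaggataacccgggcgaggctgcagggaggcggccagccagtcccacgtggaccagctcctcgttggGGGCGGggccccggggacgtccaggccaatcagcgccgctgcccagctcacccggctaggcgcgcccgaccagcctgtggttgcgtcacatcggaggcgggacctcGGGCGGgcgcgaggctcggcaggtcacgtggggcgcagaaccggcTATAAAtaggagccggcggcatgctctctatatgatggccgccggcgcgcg
The Slc20a1 window shown had 73% G or C and 36 CpG dinucleotides, and the Kl window 67.3% and 19, against medians of 52.7% and 7 over 32851 mouse promoter windows. The second Slc20a1 window, chr2:129206846-129207145 on the plus strand, was near these medians with 52% G or C and 6 CpG. The apical cotransporter windows had 2 CpG each, with 46.7% G or C in Slc34a1 and 57.7% in Slc34a3. Kl held GGGCGG at 3 places, the Slc20a1 window shown at 2 and the second Slc20a1 window at 1, and 35.7% of all windows hold it. Slc34a1 held GTTAAT at 2 places, a motif found in 7.1% of windows, and Slc34a3 held none of the motifs. TATAAA was present in 13.6% of all windows. In Slc34a1 it began at base 17 of the annotated transcript and in Slc20a1 at the base before the start. Neither match thus lay wholly upstream of the start used for its window, as that element does. The Slc34a1 window lies inside the deposited span of that gene, which begins at 55398187, and does not cover that first base.

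A direct repeat of hexamers with 3 bases between them is the kind of element to which Vdr binds with a retinoid X receptor. The usual core hexamer for nuclear receptors was searched as AGGTCA. A common variant that differs from it in the opening base was searched as GGGTCA. Further variants known from vitamin D response elements differ inside the hexamer, and the first of these was AGTTCA. Its own form with the other purine in front was searched as GGTTCA. Variants that differ in the next to last base were searched as AGGTGA in the form with the core's opening base. With the other opening base this last variant reads GGGTGA. Any pair of them in the same orientation was searched on both strands with a spacer of 3 bases or, as the kind other nuclear receptors use, of 1 base. They were found in 0.195% and 0.478% of all windows. None lay in the 10 windows that the table holds for 7 of the 10 genes, Kl, Vdr, Cyp27b1, Slc34a1, Slc34a3, Slc20a1 and Pth1r. At such low shares, 10 windows are too few for this absence to tell these genes from others. Fgfr1, Cyp24a1 and Slc20a2 had no window and were not searched.

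Kl, which encodes klotho, spans chromosome 5 from 150952607 to 150993817 (plus strand, GRCm38). Its level was 79.4 and 75.3 FPKM in WT, 85.2 and 87.7 in KO, compared with 26.2 and 16.5 in WT_IR and with 69.6 and 74.8 in KO_IR. Both WT_IR libraries lay far below the other 6, and each KO_IR library was just under the WT libraries. In wild type kidney Kl fell by 1.85 ± 0.19 on the log2 scale (SE, adjusted p = 0.000342), to 27.6% of the WT mean. In knockout kidney the change was -0.26 ± 0.19 (adjusted p = 0.648), with a 95% interval of -0.70 to 0.19. The difference between these responses was 1.59 ± 0.27 (adjusted p = 0.0105), and KO_IR exceeded WT_IR by 1.75 ± 0.19 (adjusted p = 0.00105). Between 3118 and 13120 fragments per library lay behind the level of Kl.

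Fgfr1, the FGF receptor that pairs with klotho, was at 8.42 and 9.45 FPKM in WT, 10.03 and 9.86 in KO, with 9.66 and 10.1 in WT_IR against 8.62 and 9.07 in KO_IR. All values lay close together: the WT range overlapped that of KO_IR and the KO range that of WT_IR, the other pairs of groups did not overlap, and no comparison passed on the FPKM scale. WT_IR minus WT was 0.13 ± 0.085 on the log2 scale (adjusted p = 0.263), with a 95% interval of -0.07 to 0.33. On the TPM scale this difference became 0.63 (adjusted p = 0.00257) and with voom on fragments 0.50 (adjusted p = 0.00236), both past the threshold. In TPM, KO_IR minus WT_IR (-0.50, adjusted p = 0.0103) and the interaction (-0.73, adjusted p = 0.0175) of Fgfr1 also passed, opposite in sign to those of Kl. The ratio of Kl to Fgfr1 in FPKM was 9.43 and 7.96 in WT, 8.49 and 8.89 in KO, and after IR 2.72 and 1.63 in WT_IR but 8.07 and 8.25 in KO_IR. This ratio does not depend on how a library was scaled, and it was lower in both WT_IR libraries than in the other 6.

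Vdr, the nuclear receptor for calcitriol, lies on chromosome 15 from 97854425 to 97910630 (minus strand). It was at 57.1 and 54.1 FPKM in WT, 49.0 and 50.4 in KO, compared with 25.6 and 25.7 in WT_IR and with 35.7 and 40.5 in KO_IR. The 4 groups did not overlap, in the order WT, KO, KO_IR and WT_IR. In wild type Vdr fell by 1.09 ± 0.086 on the log2 scale (adjusted p = 0.000147). In knockout kidney the change was -0.38 ± 0.086, with an unadjusted p of 0.0032 and an adjusted p of 0.114 in limma and the smallest p of the 10 genes in that comparison. The responses differed by 0.71 ± 0.12 (adjusted p = 0.0112), and KO_IR exceeded WT_IR by 0.55 ± 0.086 (adjusted p = 0.00392). On the TPM scale the fall in wild type was 0.60 and still passed (adjusted p = 0.00307), but the KO_IR minus WT_IR difference was 0.21 (adjusted p = 0.157) and the interaction 0.28 (adjusted p = 0.192). With voom the KO_IR minus WT_IR difference was 0.32 and passed (adjusted p = 0.0322), and the interaction was 0.45 (adjusted p = 0.0529).

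Cyp27b1 and Cyp24a1 stood apart from the other 8 genes in how far replicates of 1 group differed. Cyp27b1, which makes calcitriol, was at 6.71 and 27.0 FPKM in WT, 21.6 and 9.93 in KO, with 10.01 and 14.3 in WT_IR against 20.03 and 15.5 in KO_IR. Cyp24a1, which degrades it, was at 22.3 and 2.73 FPKM in WT, 12.7 and 17.4 in KO, and after IR 15.7 and 2.54 in WT_IR but 12.3 and 16.2 in KO_IR. The range of WT took in every value of the other groups for Cyp27b1, and for Cyp24a1 every value except 2.54. In 4 of 4 groups the library with more Cyp24a1 had less Cyp27b1. That library was replicate 1 in WT and WT_IR and replicate 2 in KO and KO_IR. Whether equal numbers share mice is not stated, so the 4 groups may not be 4 separate cases. In WT, replicate 1 held 8.20 times as much Cyp24a1 as replicate 2, and replicate 2 held 4.02 times as much Cyp27b1 as replicate 1. For Cyp24a1 the ratio of the higher to the lower library was 6.15 in WT_IR, 1.38 in KO and 1.31 in KO_IR.

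The within-group SD on the log2 scale was 1.24 for Cyp24a1, above 99.9% of the genes tested, and 0.784 for Cyp27b1, above 98.9%. The median gene had 0.126, and the other 8 genes of the axis lay between 0.0620 and 0.240. Counting error was small beside this spread, since Cyp24a1 had 150 to 1289 fragments per library and Cyp27b1 280 to 1074. No comparison of either gene passed. For Cyp24a1, WT_IR minus WT was -0.28 with a 95% interval of -2.49 to 1.94, and KO_IR minus WT_IR was 0.98 with an interval of -1.24 to 3.19. For Cyp27b1 these differences were -0.18 (-1.58 to 1.23) and 0.52 (-0.89 to 1.92). With 2 pools a group, changes of any size within these intervals remain compatible with the data. Cyp24a1 shares 718 bases with Pfdn4 on the opposite strand. Since the counting is not stated to use strand, reads there cannot be told apart. Pfdn4 was at 2.62 to 4.24 FPKM. It was above Cyp24a1 in WT replicate 2 (3.39 against 2.73) and in WT_IR replicate 2 (3.16 against 2.54). The part of shared reads in these levels was not tested.

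**Figure D2:**
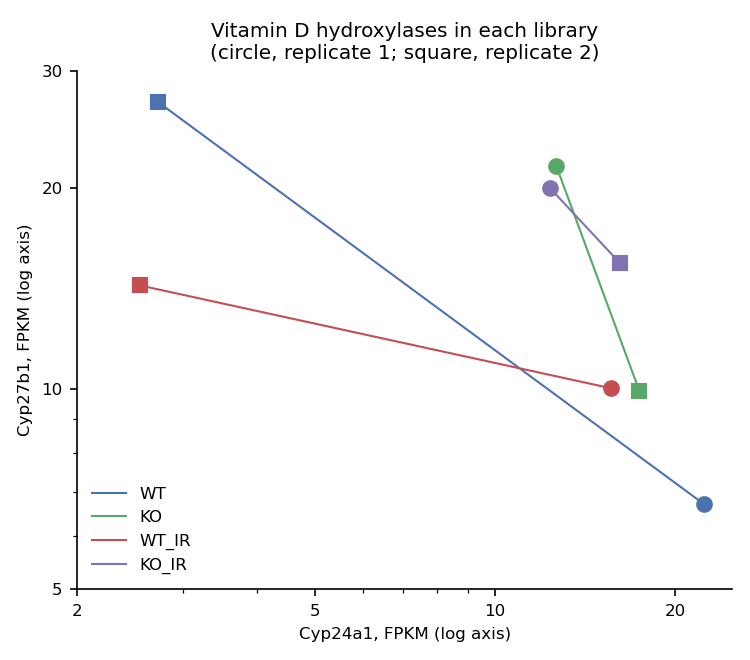
Cyp24a1 on the x axis against Cyp27b1 on the y axis, in FPKM on log axes, with 1 point per library and a line joining the 2 libraries of a group. Every line slopes down, from 2.73 FPKM of Cyp24a1 with 27.0 of Cyp27b1 in one WT library to 22.3 with 6.71 in the other.

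Slc34a1, the main phosphate cotransporter of the brush border, was the most abundant of the 10 genes. It lies on chromosome 13 from 55398187 to 55415592 (plus strand). Its level was 1396 and 1095 FPKM in WT, 1335 and 1358 in KO, compared with 348 and 233 in WT_IR and with 1255 and 1247 in KO_IR. The WT_IR libraries lay far below the other 6, and the KO_IR values fell within the WT range. In wild type Slc34a1 fell by 2.11 ± 0.21 on the log2 scale (adjusted p = 0.000306), to 23.3% of the WT mean. In the knockout the change was -0.11 ± 0.21 (adjusted p = 0.895), with a 95% interval of -0.60 to 0.39. KO_IR exceeded WT_IR by 2.13 ± 0.21 (adjusted p = 0.000784) and the interaction was 2.01 ± 0.30 (adjusted p = 0.00754).

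Slc34a3, the second apical cotransporter, lies on chromosome 2 from 25228898 to 25234364 (minus strand). It was at 37.4 and 32.4 FPKM in WT, 34.3 and 35.0 in KO, with 5.75 and 3.78 in WT_IR against 30.6 and 30.3 in KO_IR. Both KO_IR values were just below the lowest WT value, and both WT_IR values were far below these. In wild type Slc34a3 fell by 2.66 ± 0.16 on the log2 scale (adjusted p = 6.57e-05). In the knockout it changed by -0.18 ± 0.16 (adjusted p = 0.704, 95% interval -0.56 to 0.19), and the interaction was 2.47 ± 0.23 (adjusted p = 0.0035). KO_IR exceeded WT_IR by 2.47 ± 0.16 (adjusted p = 0.00034). The ratio of Slc34a1 to Slc34a3 was 37.3 and 33.8 in WT, 38.9 and 38.7 in KO, and after IR 60.6 and 61.6 in WT_IR but 41.1 and 41.2 in KO_IR, so it was higher in WT_IR than in every other library.

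Slc20a1, a phosphate cotransporter found in most cell types, moved the other way. It lies on chromosome 2 from 129198764 to 129211616 (plus strand). It was at 6.48 and 7.33 FPKM in WT, 8.12 and 7.08 in KO, compared with 26.0 and 34.6 in WT_IR and with 11.2 and 7.82 in KO_IR. The WT_IR libraries were above all others, and 1 KO_IR library was inside the KO range while the other was above it. Slc20a1 rose in wild type by 1.97 ± 0.19 on the log2 scale (adjusted p = 0.000266). In the knockout the difference was 0.27 ± 0.19 (adjusted p = 0.628, 95% interval -0.17 to 0.72), and leaving out KO_IR replicate 1 gave 0.04. The interaction was -1.70 ± 0.27 (adjusted p = 0.00886), and KO_IR was below WT_IR by a log2 difference of -1.58 ± 0.19 (adjusted p = 0.0015). A gene on the opposite strand, 9830144P21Rik, overlaps 5659 bases of Slc20a1 and was at 1.56 and 1.78 FPKM in WT_IR and 0.434 to 0.688 FPKM in the other libraries.

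Slc20a2, the paralog of Slc20a1, was at 10.1 and 10.03 FPKM in WT, 12.0 and 9.62 in KO, with 9.27 and 8.81 in WT_IR against 9.54 and 9.33 in KO_IR. The KO range enclosed WT, and the groups after IR lay below WT without overlap. No comparison passed on the FPKM scale, and WT_IR minus WT was -0.14 ± 0.11 on the log2 scale (adjusted p = 0.332). That difference turned to 0.34 on the TPM scale (adjusted p = 0.0476) and 0.20 with voom (adjusted p = 0.17). Gm17491 overlaps 3042 bases of Slc20a2 on the same strand and was at 4.32 to 6.75 FPKM, so how reads were shared between them is uncertain. Slc20a1 over Slc20a2 in FPKM was 0.639 and 0.730 in WT, 0.675 and 0.736 in KO, and after IR 2.81 and 3.93 in WT_IR but 1.17 and 0.838 in KO_IR.

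The 4 cotransporters together summed to 1450 and 1144 FPKM in WT, 1389 and 1409 in KO, compared with 389 and 280 in WT_IR and with 1307 and 1295 in KO_IR. The Slc20 genes made up 1.15% and 1.52% of that sum in WT, 1.45% and 1.19% in KO, with 9.05% and 15.5% in WT_IR against 1.59% and 1.32% in KO_IR. Slc34a1 remained the largest of the 4 in every library.

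**Figure D3:**
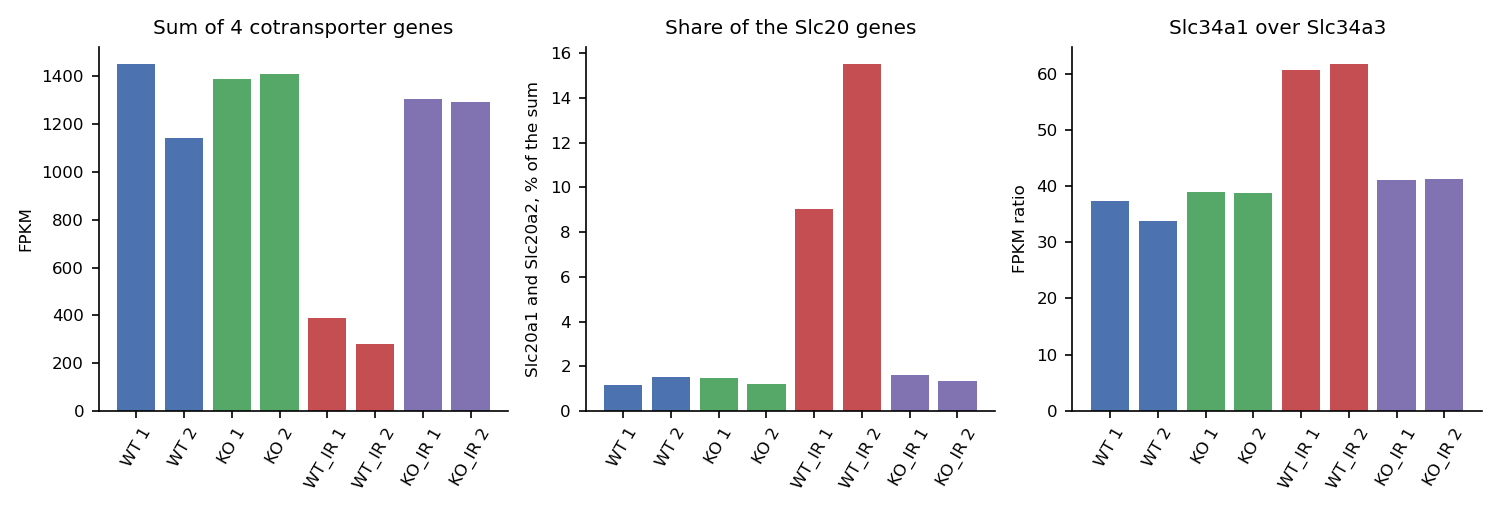
Summed FPKM of the 4 sodium-phosphate cotransporters, the share of that sum held by the Slc20 genes in percent, and the FPKM ratio of Slc34a1 to Slc34a3, with 1 bar per library on axes that start at 0 and colours for the 4 groups. The share is 9.05% and 15.5% in the WT_IR libraries and at most 1.59% in the other 6.

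Pth1r, the receptor for PTH, lies on chromosome 9 from 110722085 to 110747145 (minus strand). It was at 280 and 230 FPKM in WT, 270 and 264 in KO, and after IR 176 and 167 in WT_IR but 255 and 251 in KO_IR. The WT range enclosed all KO and KO_IR libraries, and both WT_IR libraries were below it. In wild type Pth1r fell by 0.57 ± 0.11 on the log2 scale (adjusted p = 0.00615), the mildest fall of the 5. KO_IR exceeded WT_IR by 0.56 ± 0.11 (adjusted p = 0.01), and the interaction, 0.49 ± 0.16, did not pass (adjusted p = 0.0818). The fall in wild type was 0.06 on the TPM scale (adjusted p = 0.659) and 0.21 with voom (adjusted p = 0.113), which ends the call. The KO_IR minus WT_IR difference was 0.21 on the TPM scale (adjusted p = 0.144), and with voom it was 0.32 and passed (adjusted p = 0.0333). Without WT_IR replicate 2 this difference was 0.52 in limma and did not pass.

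**Figure D4:**
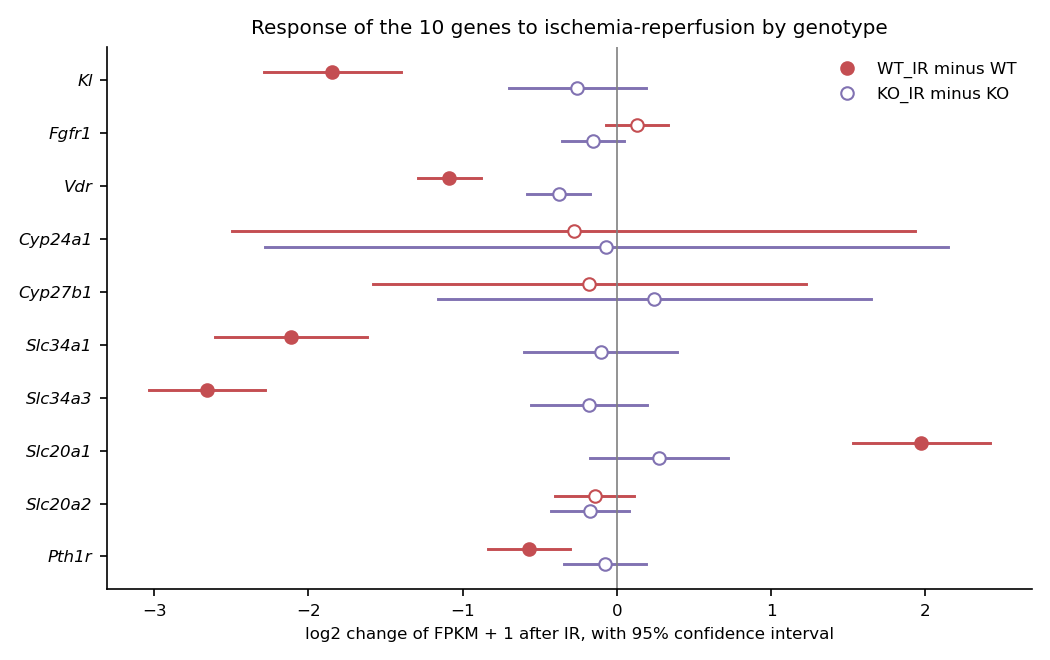
Log2 change after IR on the log2(FPKM + 1) scale for each of the 10 genes, in wild type (WT_IR minus WT) and in knockout (KO_IR minus KO), with 95% intervals from limma. The wild type changes run from -2.66 for Slc34a3 to 1.97 for Slc20a1, and every knockout interval except that of Vdr (-0.58 to -0.17) includes 0.

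Markers of kidney cell types moved beside these genes. The counts are for WT_IR against WT, where 19.1% of all genes tested were higher and 23.2% lower. All 12 proximal tubule markers tested fell in WT_IR against WT, with summed levels of 18495 and 19658 FPKM in WT, 18155 and 18075 in KO, compared with 5661 and 6105 in WT_IR and with 18798 and 14499 in KO_IR. All 4 distal convoluted tubule markers tested also fell, with sums of 236 to 243 FPKM in WT, 236 to 265 in KO, 63.3 to 65.9 in WT_IR and 166 to 233 in KO_IR. All 8 macrophage markers rose, from sums of 41.4 and 48.9 FPKM in WT to 368 and 386 in WT_IR, with 56.9 and 76.0 in KO and 166 and 168 in KO_IR. All 7 fibroblast and pericyte markers rose as well, with sums of 13.4 and 19.8 FPKM in WT, 19.3 and 24.8 in KO, with 286 and 259 in WT_IR against 105 and 109 in KO_IR. All 7 injured tubule markers rose, with sums of 1028 and 1012 FPKM in WT, 581 and 972 in KO, and after IR 13274 and 13963 in WT_IR but 2022 and 2915 in KO_IR. On the TPM scale 11 of 12 proximal tubule and 3 of 4 distal convoluted tubule markers fell, and all of the macrophage, fibroblast and injured tubule markers rose. Of all genes, 48% were higher and 9.96% lower on that scale. In KO_IR against KO, 6 of 8 macrophage, 4 of 7 fibroblast and pericyte and 3 of 7 injured tubule markers rose (6, 4 and 4 in TPM). There 0 of 12 proximal tubule and 1 of 4 distal convoluted tubule markers fell (0 and 0 in TPM). Of all genes, 0.948% were higher and 0.0769% lower in that comparison on the FPKM scale. No marker of these 5 lists was at 0 in all libraries, and Cyp11b1 of the adrenal gland was. Among further lists in WT_IR against WT, all 3 T and NK cell markers tested and the 1 B cell marker tested rose, also in TPM. Of 5 thick ascending limb markers 0 rose and 4 fell (0 and 3 in TPM). Intercalated cell markers gave the same counts of 5. Of 4 neutrophil markers 3 rose and 0 fell (4 and 0 in TPM). The 1 adrenal gland marker tested did not pass. The remaining lists were mixed or moved in part. Of 5 podocyte markers tested 1 rose and 3 fell (1 and 0 in TPM). Of 7 endothelium markers 4 rose and 1 fell (5 and 0 in TPM). Of 5 markers of collecting duct principal cells 0 rose and 2 fell (0 and 1 in TPM). In whole kidney RNA, fewer cells of a type and less RNA per cell cannot be told apart, and the part of cell composition in the changes of the 10 genes was not tested.

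The other genes of the axis were followed through 58 genes in 8 lists, of which 57 were in the table and 47 were tested. In WT_IR against WT 12 rose and 22 fell, where 42.3% of all genes passed (19.1% higher and 23.2% lower), with a median log2 change of -0.28 against -0.02 for all genes. On the TPM scale the split was 17 higher and 10 lower, so the majority turned with the scale, and 57.9% of all genes passed there (48% higher and 9.96% lower). In KO_IR against KO, 0 of the 47 passed in limma, where 1.03% of all genes did, with 11 at an unadjusted p under 0.05 and 1 (Arrb2) called by voom. Without KO_IR replicate 2, however, Egr1 (3.69 in place of 2.29, adjusted p = 0.00913) and Casr (-0.90 in place of -0.56, adjusted p = 0.0385) passed, and none did without any other single library. In KO against WT, 0 passed, where 0.218% of all genes did, with 4 at an unadjusted p under 0.05 and 0 by voom. In KO_IR against WT_IR 19 were higher and 8 lower, where 30% of all genes passed, and on the TPM scale 11 and 13, where 47.1% passed. The interaction was positive for 11 and negative for 5, where 16.3% of all genes passed, and on the TPM scale for 3 and 11, where 29% passed. In the lists that follow, counts are for WT_IR against WT and are to be read against the same shares of all genes.

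Among the hormones, Fgf23 and Pth were listed at 0 in all 8 libraries. In the FGF23 signalling list 1 of 7 tested genes rose and 2 fell in WT_IR against WT, and on the TPM scale 5 rose and 0 fell. Fgfr3 and Fgfr4, receptors that klotho can also join, fell by 0.71 ± 0.11 (adjusted p = 0.00169) and 0.36 ± 0.094 (adjusted p = 0.0201) on the log2 scale. On the TPM scale neither passed, and Fgfr4 turned to 0.14 (adjusted p = 0.224). Fgfr4 also missed the threshold without WT replicate 1 (adjusted p = 0.103) and without WT_IR replicate 1 (adjusted p = 0.115). Egr1, an immediate early gene that FGF23 induces, was at 1.36 and 1.13 FPKM in WT, 1.13 and 1.88 in KO, compared with 11.5 and 12.1 in WT_IR and with 30.9 and 3.60 in KO_IR, with the KO_IR libraries on either side of those of WT_IR. It rose in wild type by 2.51 ± 0.76 (adjusted p = 0.0335). That call was lost without either WT replicate, either WT_IR replicate or KO replicate 1, with adjusted p-values from 0.0501 to 0.118.

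Of the enzymes that can shed klotho from the cell surface, Adam10 and Adam17 rose in WT_IR and Bace1 did not pass (-0.09, adjusted p = 0.696). Adam10 was at 15.4 and 16.0 FPKM in WT, 15.5 and 14.3 in KO, with 31.0 and 30.7 in WT_IR against 16.7 and 17.6 in KO_IR. It rose by 0.93 ± 0.078 on the log2 scale (adjusted p = 0.000173), the reverse of the direction of Kl, and the interaction was -0.74 ± 0.11 (adjusted p = 0.00785). Adam17 rose by 0.52 ± 0.11 (adjusted p = 0.00894), and missed the threshold narrowly without WT replicate 1 (0.45, adjusted p = 0.0532) or WT_IR replicate 2 (0.50, adjusted p = 0.0529). In the phosphatonin list Enpp1 and Galnt3, an enzyme that glycosylates FGF23, fell by 0.63 and 0.60 (adjusted p = 0.0041 and 0.0121), and neither passed on the TPM scale (adjusted p = 0.133 and 0.389). Galnt3 also missed the threshold without WT replicate 1 (adjusted p = 0.0663) or WT_IR replicate 2 (adjusted p = 0.0674).

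In the list of vitamin D uptake and activation 1 of 6 genes rose and 5 fell after IR in wild type (1 and 4 in TPM). Gc, which encodes the vitamin D binding protein of plasma, rose from 26.8 and 34.3 FPKM in WT to 108 and 99.5 in WT_IR, and was at 47.5 and 36.2 in KO and 57.9 and 53.2 in KO_IR. Its log2 change was 1.74 ± 0.16 (adjusted p = 0.000234), with an interaction of -1.33 ± 0.23 (adjusted p = 0.011). Amn and Cubn form the endocytic receptor that takes up the binding protein with its load. Cubn was at 25.2 and 26.3 FPKM in WT, 37.2 and 32.6 in KO, and after IR 11.5 and 7.49 in WT_IR but 30.5 and 27.6 in KO_IR. It fell by 1.37 ± 0.18 (adjusted p = 0.000895), and Amn fell by 1.14 ± 0.12 (adjusted p = 0.000407). Cyp27a1, a mitochondrial sterol hydroxylase that also acts on vitamin D, fell by 1.08 ± 0.15 (adjusted p = 0.00125).

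Rxra, the dimer partner of Vdr, was at 38.3 and 38.5 FPKM in WT, 38.9 and 35.4 in KO, compared with 21.7 and 21.9 in WT_IR and with 32.5 and 29.8 in KO_IR. This is the order of levels seen for Vdr in the IR groups, with WT_IR lowest and KO_IR next. Rxra fell by 0.79 ± 0.083 on the log2 scale (adjusted p = 0.000392). Its interaction of 0.54 (adjusted p = 0.0239) did not pass on the TPM scale (0.11, adjusted p = 0.458), nor in fits without WT replicate 1 or 2, KO replicate 2, WT_IR replicate 1 or 2, or KO_IR replicate 1 (adjusted p from 0.0571 to 0.0894). Of the 7 partners tested, 1 rose and 2 fell, which turned to 2 and 1 in TPM. The fall of Rxrb by 0.28 (adjusted p = 0.0402) turned to 0.21 on the TPM scale (adjusted p = 0.116), and it missed the threshold in 7 of the 8 fits that leave out 1 library (adjusted p from 0.0553 to 0.21), all but the one without WT_IR replicate 2.

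In the list of PTH and calcium sensing 1 of 5 genes rose and 3 fell (1 and 1 in TPM). Casr, the calcium-sensing receptor, was at 14.5 and 13.9 FPKM in WT, 14.9 and 13.7 in KO, with 4.04 and 3.74 in WT_IR against 7.20 and 12.2 in KO_IR. In wild type it fell by 1.63 ± 0.20 on the log2 scale (adjusted p = 0.00072). Arrb2, an arrestin that binds activated PTH receptors among many others, rose by 1.56 ± 0.11 (adjusted p = 0.000106). Prkaca and Adcy6, of the cyclic AMP pathway, fell by 0.31 and 0.28 (adjusted p = 0.017 and 0.0349) and turned to 0.19 and 0.23 on the TPM scale, where neither passed. Both also missed the threshold without WT replicate 1 (adjusted p = 0.0855 and 0.113), WT_IR replicate 1 (0.0885 and 0.162) or WT_IR replicate 2 (0.0556 and 0.0731), and Adcy6 without WT replicate 2 (0.0927), KO replicate 1 (0.0568) or KO replicate 2 (0.0567).

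In the list of phosphate transport partners 3 of 10 genes rose and 5 fell, and in TPM 3 rose and 2 fell, so the majority turned. Slc34a2, the cotransporter of the same family that is best known from intestine and lung, was at 1.19 and 0.916 FPKM in WT, 0.670 and 1.11 in KO, and after IR 15.1 and 9.86 in WT_IR but 1.19 and 2.08 in KO_IR. It rose by 2.69 ± 0.24 on the log2 scale (adjusted p = 0.000222), opposite to Slc34a1 and Slc34a3, and the interaction was -2.22 ± 0.34 (adjusted p = 0.00852). Slc34a1 remained the more abundant, with 1170 and 1194 times the FPKM of Slc34a2 in WT and 23.1 and 23.6 times in WT_IR. Pdzk1, a scaffold protein of the brush border that binds Slc34a1, fell by 1.05 ± 0.19 (adjusted p = 0.0041). Pdzk1ip1, which binds Pdzk1, fell by 1.05 ± 0.18 (adjusted p = 0.00321). Stc2, a stanniocalcin, rose by 1.13 ± 0.14 (adjusted p = 0.000658).

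In the list of vitamin D responsive calcium transport 3 of 6 genes rose and 3 fell in WT_IR (3 and 2 in TPM). The cytosolic calcium carriers of the distal nephron fell: S100g was at 1612 and 1483 FPKM in WT and 119 and 79.4 in WT_IR, and Calb1 at 122 and 128 in WT and 6.40 and 5.95 in WT_IR. S100g was at 1279 and 1316 FPKM in KO and 1091 and 1080 in KO_IR, and Calb1 at 77.6 and 99.2 in KO and 45.1 and 70.4 in KO_IR. Their log2 changes in wild type were -3.98 ± 0.19 (adjusted p = 4.59e-05) and -4.14 ± 0.21 (adjusted p = 5.08e-05), beyond that of any of the 10 genes. The luminal calcium channels rose, Trpv6 by 1.44 ± 0.18 (adjusted p = 0.000739) and Trpv5 by 1.13 ± 0.25 (adjusted p = 0.0101). Trpv5 was at 26.8 FPKM in 1 WT_IR library and 14.2 in the other, and at 7.89 to 10.4 in the 6 libraries of the other groups.

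**Figure D5:**
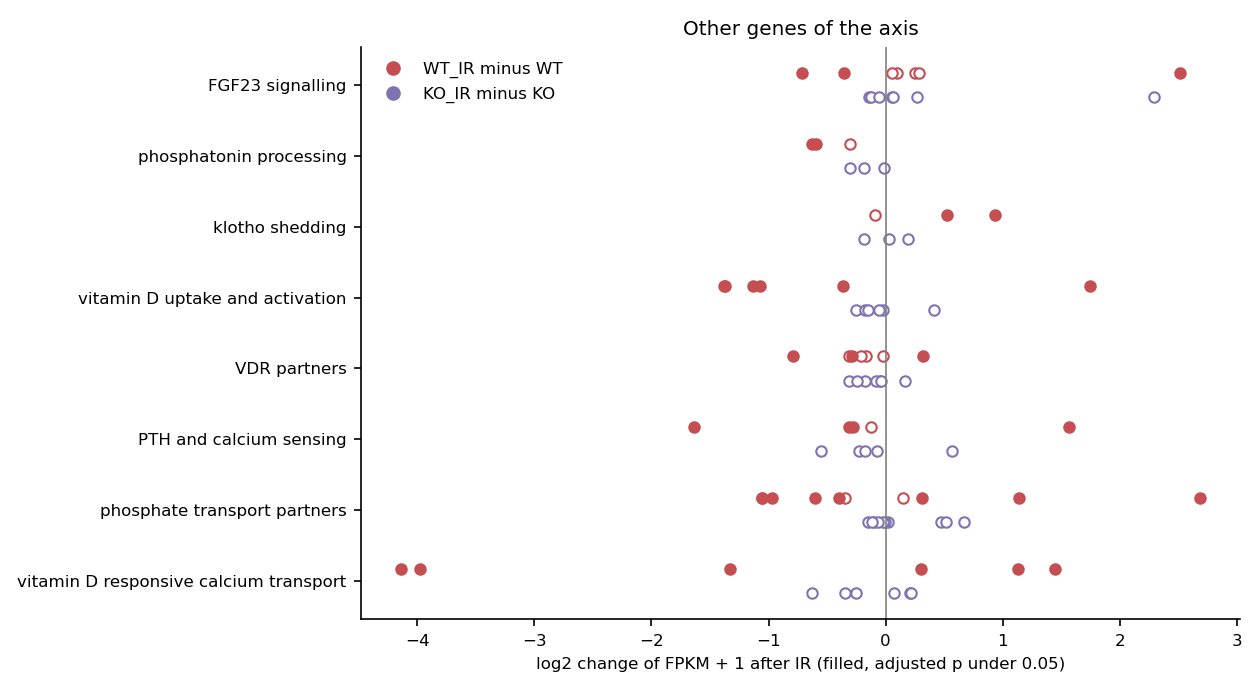
Log2 change on the log2(FPKM + 1) scale after IR of the 47 other genes of the axis that were tested, in wild type (WT_IR minus WT) and knockout (KO_IR minus KO), with 1 point per gene and genotype in rows by list, filled where the adjusted p is under 0.05. In wild type Calb1 and S100g lie farthest to the left at -4.14 and -3.98 and Slc34a2 and Egr1 farthest to the right at 2.69 and 2.51, and no knockout point is filled.

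The genes whose levels followed each of the 10 most closely are given as a description over the 8 libraries, which share their scaling. They were ranked by Pearson's r of log2(FPKM + 1) among tested protein-coding genes. For Kl these were Slc16a14 (r = 0.998), Slc25a51 (0.996) and Myo15b (0.995), and for Vdr Flvcr2 (0.996), Atp6ap1 (0.992) and Top3b (0.992). Slc34a1 was followed by Pecr (0.999), Car14 (0.999) and Ces1d (0.996), and Slc34a3 by Spp2 (0.999), Odc1 (0.998) and Ces1d (0.998), so Ces1d appeared for both apical cotransporters. Pth1r was followed by Grtp1 (0.995), Bmp7 (0.993) and Neu2 (0.993), and Slc20a1 by Arid5a (0.996), Rasl12 (0.993) and Tmpo (0.993). The values were lower for genes that did not separate WT_IR from the rest. They were 0.978 for Slc20a2 with Zc3h14, 0.968 for Cyp27b1 with Sarnp, 0.942 for Fgfr1 with Kansl1 and 0.922 for Cyp24a1 with Slc2a1. Each r was picked from the highest of many genes over 8 libraries, so it is large in part by selection and was not tested.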

How the data were processed

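The 8 kidney libraries (2 a group) hold polyadenylated RNA, pooled from 3 mice each per the labels. The authors deposited FPKM for 54251 genes in 1 table, with gene lengths and coordinates. Alignment used HISAT2 2.0.5 to mm10 (GRCm38.p6), per the submitters' processing notes. How fragments were counted, whether by strand, on which annotation and with which program FPKM were computed is not given in the sources used here. Multiplied by gene length, the deposited FPKM of a library are whole multiples of 1 step in 100% of genes (tolerance 1e-06). The fragments recovered in this way served voom and the depths given. A level of 0.148 to 0.206 FPKM, depending on the library, equals 3 fragments of a 1 kb gene, which is a limit from counting error alone.

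Tests used log2(FPKM + 1) of the genes that average 0.5 FPKM or more. A linear model of limma 3.58.1, run in R 4.3.3, took all 8 libraries, a mean for each group and a mean-variance trend (4 residual and 3.04 prior degrees of freedom). P-values were adjusted by Benjamini-Hochberg over all 15607 genes in each of 5 comparisons. A log2 change is given with its standard error (±) unless SD is named, and the pseudocount of 1 understates changes of low genes. Replicates are biological per the labels. With equal replicate numbers not said to share mice or a day, no block was used. The steps were tested on simulated data.

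The 10 genes and the lists were chosen with earlier results of these data known, and the promoter motifs after the files were seen. Named by rule were the 10 genes, Ehmt2, Fgf23, Pth, up to 4 genes of each of the 8 lists with the smallest p in WT_IR minus WT, and the 3 protein-coding genes most correlated with each of the 10 (the first of the 3 for 4 of them). Ankh of the lists was not found under that symbol. Alternatives were pseudocounts of 0.1 and 5, testing all genes or those that average at least 5 FPKM, TPM, median-of-ratios scaling, no trend, fits of the compared groups only, voom, a replicate block, leaving out each library in turn, and, added after the data were seen, a block within genotype. A fit without 1 library leaves its group with 1, which is assumed to vary like the others.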

Additional observations from a re-analysis of the deposited data

Results flagged for a closer look

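For 5 of the 10 genes the response to IR differed between the genotypes by a test of the difference itself, the interaction in limma. Values are on the log2(FPKM + 1) scale, as the response in knockout minus the response in wild type. The difference was 2.47 for Slc34a3, 2.01 for Slc34a1, 1.59 for Kl, 0.71 for Vdr and -1.70 for Slc20a1. All 5 passed in WT_IR minus WT, and none passed in KO_IR minus KO, where their adjusted p in limma ran from 0.114 for Vdr to 0.895 for Slc34a1. The value for Vdr did not pass on the TPM scale or with voom. The groups hold 2 libraries each, too few to test whether 1 library is far from the others.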

How the results depend on the processing

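The number of the 10 genes that passed was 6 to 7 in WT_IR minus WT, 0 in KO_IR minus KO and in KO minus WT, 5 to 7 in KO_IR minus WT_IR and 5 to 6 in the interaction over all alternatives. These totals hide a change of split: from 1 higher and 5 lower in WT_IR minus WT to 3 and 4 in TPM and 2 and 4 with voom, and from 5 and 1 in KO_IR minus WT_IR to 3 and 2 in TPM and 5 and 2 with voom. Kl, Slc34a1, Slc34a3 and Slc20a1 kept their calls and directions in each alternative of WT_IR minus WT, KO_IR minus WT_IR and the interaction, and the cause of the changes below was not tested. On the TPM scale the sign turned for Cyp24a1 (WT_IR minus WT 0.18, interaction -0.19), Cyp27b1 (0.32 and -0.0015), Slc20a2 (WT_IR minus WT 0.34, KO_IR minus WT_IR -0.29) and Slc34a3 (KO minus WT 0.076). With voom it turned for Cyp27b1 (WT_IR minus WT 0.21), Slc20a2 (0.20, and -0.19 for KO_IR minus WT_IR) and Slc34a3 (KO minus WT 0.027). Leaving out each library in turn, log2 values that had not passed ran on both sides of 0. In WT_IR minus WT the ranges were -1.60 to 1.04 for Cyp24a1 and -1.11 to 0.75 for Cyp27b1. In KO_IR minus KO they were -0.28 to 0.15 for Cyp24a1 and -0.28 to 0.77 for Cyp27b1. In KO minus WT they were -0.56 to 2.09 for Cyp24a1, -0.83 to 1.03 for Cyp27b1, -0.0529 to 0.30 for Slc34a1, -0.11 to 0.10 for Slc34a3, -0.0618 to 0.23 for Slc20a2 and -0.070 to 0.21 for Pth1r. In KO_IR minus WT_IR the range was -0.14 to 2.09 for Cyp24a1. In the interaction they were -1.11 to 1.54 for Cyp24a1, -0.51 to 1.35 for Cyp27b1 and -0.18 to 0.12 for Slc20a2. The interaction of Pth1r passed only without WT replicate 2 (0.63, adjusted p = 0.0407).

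Counts over all genes, the background of the shares given, moved more. The 160 genes of KO_IR minus KO became 35 with no filter, 255 on the TPM scale, 370 with voom and 0 with only the compared groups. Leaving out either WT_IR library or KO_IR replicate 1 gave 0, leaving out KO replicate 1 gave 5, and leaving out any of the other libraries gave at least 79. The 34 genes of KO minus WT became 0 to 17 without 1 library, 0 with only the compared groups and 67 with voom. The 4689 of KO_IR minus WT_IR became 7349 on the TPM scale and 2612 without WT_IR replicate 2. The 2544 of the interaction became 4528 on the TPM scale, 1670 with no filter and 1289 without WT_IR replicate 2. The 6596 of WT_IR minus WT became 9040 on the TPM scale, 8273 with voom and, at a minimum mean of 5 FPKM, 4234 of only 7728 genes tested, a share of 54.8% in place of 42.3%.

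The labels do not say whether equal replicate numbers share mice. Over the genes tested, deviations of equal numbers correlated across groups at -0.122 to 0.164. The value was highest for KO with KO_IR (0.164) and next for WT with WT_IR (0.113), the pairs within a genotype. Such correlations cannot tell whether the libraries were paired. With the replicate number as a block, 6, 0, 0, 6 and 5 of the 10 genes passed in the order of the comparisons above, as without it, and 9 in place of 34 of all genes passed in KO minus WT. The block within genotype also left 6, 0 and 5 in WT_IR minus WT, KO_IR minus KO and the interaction.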
